A study of Mus musculus with 48 samples.

Results

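The infarct zone (IZ) and the remote zone (RZ) of hearts infarcted at postnatal day 10 (P10) were compared at day 7 after surgery by H3K27ac profiles of their sorted macrophages and monocytes. The comparison rests on 4 libraries, IZ replicates 1 and 2 and RZ replicates 1 and 2, chosen by their labels from 48 labelled samples, of which 42 had a file. All 4 came from C57BL/6 mice whose left anterior descending coronary artery had been ligated at P10, and all cells had passed the same CD45+F4/80+ gate. Each library was made from the pooled zone of several hearts, so a replicate was a pool and not an animal, and the pooled hearts of a zone cannot be told apart. The border zone (BZ) of P10 hearts at day 7 after infarction, sham-operated P10 hearts at day 7, P10 hearts at day 3 after infarction and P1 hearts at day 7 after infarction, each with 2 libraries per zone, were set beside them.

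H3K27ac, acetylation of lysine 27 on histone H3, marks active promoters and enhancers, and CoBATCH reads it by cutting the DNA next to an antibody with a tethered transposase. Cardiac mononuclear phagocytic cells hold resident macrophages and monocytes. Resident macrophages settle in the heart early in life and carry receptors such as Lyve1 and Mrc1. Monocytes enter from the blood after an infarct and mature into macrophages. CoBATCH marks single cells, but the read lists used here carry no cell barcode, and pairs were summed over all cells of a library, so a change in the mix of cell types and a change within a cell type cannot be told apart. Levels are given as CPM, read pairs inside H3K27ac regions scaled to a common total per library, and differences as fitted log2 values, IZ less RZ. A gene's window ran from 50 kb before the gene to 30 kb past it and counted pairs inside regions only. Neighbouring genes therefore share pairs, and levels are not compared between genes.

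Depth limited every value. The 4 libraries held 244982 and 296353 pairs in IZ and 1008148 and 426306 pairs in RZ, against a range of 48044 to 1008148 over all 42 libraries. One pair was worth between 1.93 and 8.61 CPM. The share of pairs inside regions was 50.1% and 39.5% in IZ and 52.8% and 36.5% in RZ (two-sided exact permutation p = 1, where 0.333 is the smallest this design allows). Replicate 1 of each zone had come from the same 4 flow cells and replicate 2 of each zone from 5 others. Both number 2 libraries held repeated lines (21.9% in IZ and 18.6% in RZ). They also held single reads, 54393 in IZ and 64695 in RZ, each counted as a pair. The replicate number thus went with a sequencing batch that both zones shared. Against the defining markers of the gate and of other heart cells, the pan macrophage windows averaged 568 and 495 CPM in IZ and 628 and 674 CPM in RZ, the cardiomyocyte windows 1.64 and 6.89 CPM in IZ and 4.63 and 5.26 CPM in RZ, and the fibroblast windows 1.37 and 4.31 CPM in IZ and 2.90 and 3.29 CPM in RZ. Of the 5 cardiomyocyte windows Tnnt2, Actc1, Ryr2 and Nppa were at 0 in all 4 libraries, and of the 6 fibroblast windows Col1a2, Col3a1, Pdgfra, Dcn and Postn were. These windows count only pairs inside regions defined on libraries of this gate, and 6628 of 21938 protein-coding windows were at 0 as well, so the zeros do not show that other heart cells were absent.

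No window passed the adjusted threshold between infarct and remote zone in the fit of all libraries, so the differences below are descriptions of the libraries. Most windows of the resident macrophage list had lower values in IZ, and the monocyte lists had members in both directions. Of 10208 windows tested, 0 had an adjusted p below 0.05 (0%, limma-voom with the heart pool as a block, Benjamini-Hochberg adjustment), and limma-trend also called 0 (356 at an unadjusted p below 0.05). Fitted on the 4 libraries alone with the replicate number as a block, 62 windows passed, 45 of them higher in IZ and 17 lower. Some were neighbours with equal fitted values, such as Pygl and Trim9 or Mcf2l and F7, so 62 is not a count of separate stretches of the genome. The windows that passed among the genes described below are given with their adjusted p in that blocked fit. It leaves almost no spread to estimate within a window, so its p-values rest mainly on the spread shared over windows. With the block as a fixed term in the fit of all libraries 0 windows passed. In the fit of all libraries at an unadjusted p below 0.05 there were 378 windows higher in IZ (3.7%), in 190 separate stretches of the genome, and 280 lower (2.74%), in 160 stretches. At day 3 after P10 infarction there were 796 windows in either direction (7.8%) and in P1 hearts at day 7 there were 665 (6.51%). Sham hearts, cut into the same zones without an infarct, gave 221 windows in either direction (2.16%), against 658 (6.45%) after infarction. Both IZ libraries lay above both RZ libraries in 1773 windows (17.4%) and below both in 1957 (19.2%), so that the zones did not overlap in 36.5% of windows, against 26.4% in sham hearts. If the labels of the 4 libraries were arranged at random, the zones would not overlap in a share of 0.333, and 36.5% lies near that. Such arrangements also mix the replicate numbers, each of which went with its own sequencing batch, so 0.333 is no baseline for libraries paired by number. The median difference over all windows was -0.01.

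The resident macrophage list was lower in IZ in nearly all its members. Of its 13 genes 12 were tested, 11 were lower and 1 higher in IZ, where 49.1% of all windows were higher, and in 9 both IZ libraries lay below both RZ libraries, against 19.2% of all windows. The list median was -0.48, and -0.21 in sham hearts, -0.64 at day 3 after P10 infarction and -0.04 in P1 hearts at day 7. At an unadjusted p below 0.05 the list held 1 lower window and 0 higher ones, where 2.74% of all windows were lower and 3.7% higher. Without IZ replicate 1 the number lower was 9 and without any other library 11 or 12. No test was run on the list.

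Mrc1 (chr 2, 14229392 to 14332057), which encodes the mannose receptor CD206, had the smallest p among these genes. Its window held 502 and 465 CPM in the IZ libraries (61 and 54 pairs) and 726 and 980.3 CPM in the RZ libraries (376 and 149 pairs). The zones did not overlap, the IZ libraries lay close together, and the fitted log2 difference was -0.70 ± 0.26 (SE) (limma adjusted p = 0.732). The region over the start site (chr2:14227001-14252500, mm10) held 238 and 224 CPM in IZ and 396 and 605 CPM in RZ, a log2 difference of -0.89 ± 0.33 (SE) (limma adjusted p = 0.626), while the distal region 16892 bases away held 156 and 129 CPM in IZ and 149 and 197 CPM in RZ, at -0.14 ± 0.40 (SE). The difference between these regions was not tested.

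The rule for naming genes of a list favoured those whose zones did not overlap, so the order of their libraries is in part the way they were chosen. Fcrls, Dab2 and Vsig4 overlapped between zones. The window of Maf, which encodes the transcription factor c-Maf, held 65.8 and 94.7 CPM in IZ and 131 and 224 CPM in RZ (-0.90 ± 0.48 (SE), limma adjusted p = 0.771). Gas6, a ligand of the TAM receptor kinases, held 32.9 and 34.5 CPM in IZ and 73.4 and 85.5 CPM in RZ (-1.05 ± 0.59 (SE), limma adjusted p = 0.793), from 4 pairs in each IZ library. Cbr2, a carbonyl reductase, held 403 and 181 CPM in IZ and 436 and 428 CPM in RZ (log2 -0.64 ± 0.34 (SE)). The gap of its IZ mean, 292 ± 157 (SD, n = 2), to RZ came mainly from the low value of replicate 2. Lyve1, the hyaluronan receptor that marks resident macrophages, held 271 and 293 CPM in IZ and 396 and 434 CPM in RZ (-0.51 ± 0.29 (SE)). Its regions went in opposite directions. That 11762 bases from the start site held 65.8 and 68.9 CPM in IZ and 56.0 and 52.6 CPM in RZ (0.34 ± 0.57 (SE)). That 26762 bases away held 49.3 and 43.1 CPM in IZ and 90.7 and 125 CPM in RZ (-0.99 ± 0.58 (SE)). C1qa, a complement component, held 436 and 422 CPM in IZ and 552 and 579 CPM in RZ (-0.37 ± 0.30 (SE)), and the lectin gene Mgl2 held 173 and 198 CPM in IZ and 284 and 289 CPM in RZ (-0.61 ± 0.36 (SE)). Vsig4 was the exception with a positive sign (log2 0.02 ± 0.49, SE), and Timd4 was too thinly covered to test, with 3 pairs over the 4 libraries. In the fit of all libraries the adjusted p ran from 0.732 for Mrc1 to 0.999 for Vsig4 (limma). In the blocked fit of the 4 libraries Mrc1 passed (limma adjusted p = 0.00530), as did its promoter region (limma adjusted p = 0.0139), and no other gene of the list.

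The pan macrophage list also had most fitted values below 0. Of 10 tested genes 9 were lower in IZ, 3 of them (Adgre1, Csf1r and Fcgr1) at an unadjusted p below 0.05 against 1 of the 12 resident genes, 5 did not overlap between zones, all 5 lower, and the median was -0.26. All 10 belong to the 2552 windows with the highest levels. Of these windows 66.0% were lower in IZ, and 4.98% were lower at an unadjusted p below 0.05, against 2.74% of all windows. In 26.1% both IZ libraries lay below both RZ libraries, and the median was -0.09. The resident genes were spread over 4 such groups of level (2, 3, 3 and 4 genes from the lowest to the highest), whose medians ran from 0.10 to -0.09 over all windows. Adgre1, the gene of the F4/80 antigen used in the sort, held 337 and 353 CPM in the IZ libraries (41 and 41 pairs) and 479 and 519.8 CPM in the RZ libraries (248 and 79 pairs), a log2 difference of -0.50 ± 0.24 (SE) (limma adjusted p = 0.756). Upstream, the region 5191 bases from the start site held 181 and 241 CPM in IZ and 371 and 408 CPM in RZ (-0.84 ± 0.32 (SE), limma adjusted p = 0.626), and the promoter region 156 and 112 CPM in IZ and 108 and 112 CPM in RZ (0.30 ± 0.42 (SE)). With a window from 5 kb before the gene to its end the sign for Adgre1 turned (0.32). Fcgr1, the high-affinity Fc gamma receptor, held 386 and 267 CPM in IZ and 471 and 513 CPM in RZ (-0.56 ± 0.27 (SE), limma adjusted p = 0.763). Mertk, a receptor for the uptake of dying cells and a partner of Gas6, held 485 and 422 CPM in IZ and 637 and 684 CPM in RZ (-0.51 ± 0.26 (SE), limma adjusted p = 0.766). Csf1r, the receptor for the growth factor that macrophages depend on, held 872 and 517 CPM in IZ and 1013 and 868 CPM in RZ and overlapped between zones (-0.52 ± 0.22 (SE), limma adjusted p = 0.748). Spi1, the gene of the lineage factor PU.1, held 896 and 741 CPM in IZ and 965 and 980.3 CPM in RZ (-0.24 ± 0.19 (SE)).

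**Figure D1:**
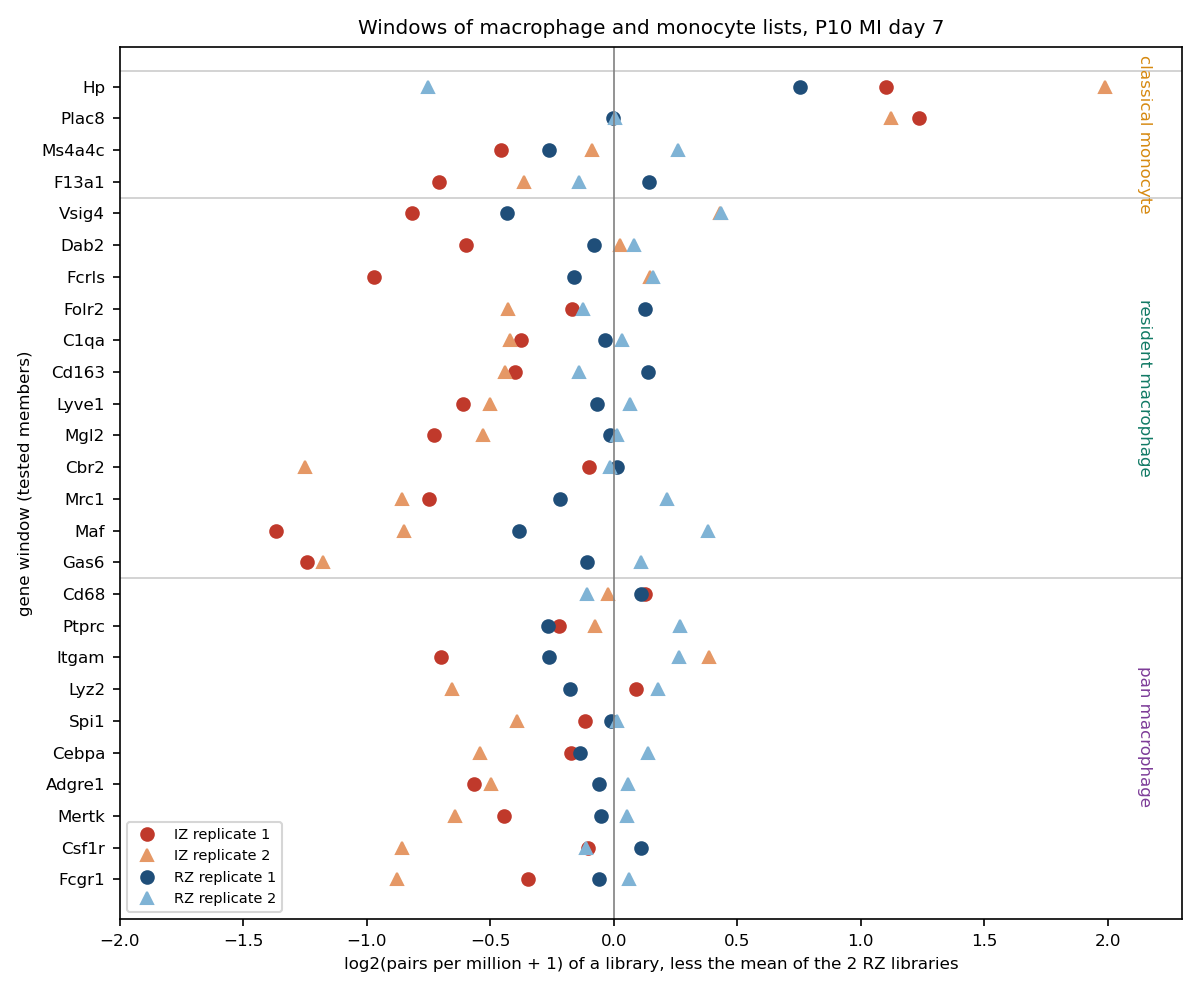
Each row is a tested window of the pan macrophage, resident macrophage or classical monocyte list (1 monocyte gene is not shown), and each symbol is 1 library of IZ (red and orange) or RZ (dark and light blue), placed on the x axis by its log2(CPM + 1) less the mean of the 2 RZ libraries. In 9 of 12 resident rows both IZ symbols lie left of both RZ symbols, and in the rows of Plac8 and Hp both lie right of them.

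Classical monocyte genes split. Of 8 listed genes 5 had enough pairs, and 3 of them, Plac8 and Hp included, were higher in IZ with no overlap between zones and an unadjusted p below 0.05, against 17.4% of all windows above in both IZ libraries and 3.7% higher at that p. F13a1 and Ms4a4c (log2 -0.14 ± 0.35, SE) had lower fitted values. The list median was 1.19 against -0.01 in sham hearts, 0.32 at day 3 and -0.02 in P1 hearts. It rests on the filter on low counts: with all windows that had a pair, 7 genes were tested, 3 were higher and the median was -0.19. Plac8, a gene expressed in blood monocytes, held 279.6 and 258 CPM in the IZ libraries (34 and 30 pairs) and 118 and 118 CPM in the RZ libraries (61 and 18 pairs). The replicates of each zone were almost equal, and the log2 difference was 1.19 ± 0.37 (SE) (limma adjusted p = 0.586, and 0.00530 in the blocked fit of the 4 libraries). Hp, haptoglobin, held 74.0 and 138 CPM in IZ and 57.9 and 19.7 CPM in RZ (1.24 ± 0.55 (SE), limma adjusted p = 0.748). The promoter region of Hp held 4 and 1 of the 9 and 16 IZ pairs and 7 and 0 of the 30 and 3 RZ pairs. There the zones overlapped (32.9 and 8.61 CPM in IZ and 13.5 and 0 CPM in RZ, log2 1.47 ± 0.95 (SE)). The other pairs of the window lay outside that region. F13a1, coagulation factor XIII A, was lower in both IZ libraries (115 and 146 CPM in IZ and 208 and 171 CPM in RZ, log2 -0.57 ± 0.43 (SE), limma adjusted p = 0.913). Inside regions Ly6c2 and Vcan had too few pairs and Chil3 had 0 in all 4 libraries, so these markers of classical monocytes were not tested. With all pairs of a window counted, inside regions or not, all 8 genes were fitted, 5 were higher and the median was 0.41.

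The Ly6c-low monocyte list (7 of 7 tested, 5 higher, median 0.17) held 1 window with a large difference, Treml4, a receptor of the Trem locus, with 132 and 189 CPM in IZ and 40.5 and 85.5 CPM in RZ (1.65 ± 0.48 (SE), limma adjusted p = 0.586). Its neighbours share pairs with it: Trem3 held 123 and 164 CPM in IZ and 29.0 and 85.5 CPM in RZ (1.84 ± 0.51 (SE)) and Trem1, named here after its values were seen, 123 and 181 CPM in IZ and 34.7 and 92.1 CPM in RZ, while Trem2, the lipid receptor at the other end of the locus, overlapped between zones (65.8 and 172 CPM in IZ and 90.7 and 59.2 CPM in RZ, log2 0.40 ± 0.52 (SE)). Nr4a1, which Ly6c-low monocytes need, held 954 and 741 CPM in IZ and 807 and 645 CPM in RZ (0.16 ± 0.21 (SE)), and Ace held 74.0 and 25.8 CPM in IZ and 25.1 and 32.9 CPM in RZ (0.77 ± 0.88 (SE)).

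Of the Arg1 and lipid-associated macrophage list 8 of 12 genes were tested, 4 higher and 4 lower, with a median of 0.09 at day 7 and 0.41 at day 3. Lgals3, galectin-3, was its only window without overlap, with 354 and 405 CPM in IZ and 226 and 204 CPM in RZ (0.78 ± 0.29 (SE), limma adjusted p = 0.732). Arg1, arginase 1, held 24.7 and 86.1 CPM in IZ and 57.9 and 19.7 CPM in RZ (0.21 ± 0.58 (SE)): IZ replicate 2 and RZ replicate 1 were the higher ones. Igf1 held 82.2 and 103 CPM in IZ and 92.7 and 125 CPM in RZ (-0.09 ± 0.49 (SE)). Gpnmb was too thinly covered and Spp1 had 0 pairs. The S100a9 monocyte and granulocyte list was thin as well, with 5 of 11 tested and a median of 0.28, against 0.87 at day 3. S100a9 had 1 pair over the 4 libraries and Cd177 had 0. Lcn2, lipocalin 2, held 164 and 198 CPM in IZ and 160.2 and 118 CPM in RZ (0.31 ± 0.34 (SE), limma adjusted p = 0.946), and Wfdc21 held 173 and 138 CPM in IZ and 94.6 and 118 CPM in RZ (0.63 ± 0.41 (SE), limma adjusted p = 0.86).

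**Figure D2:**
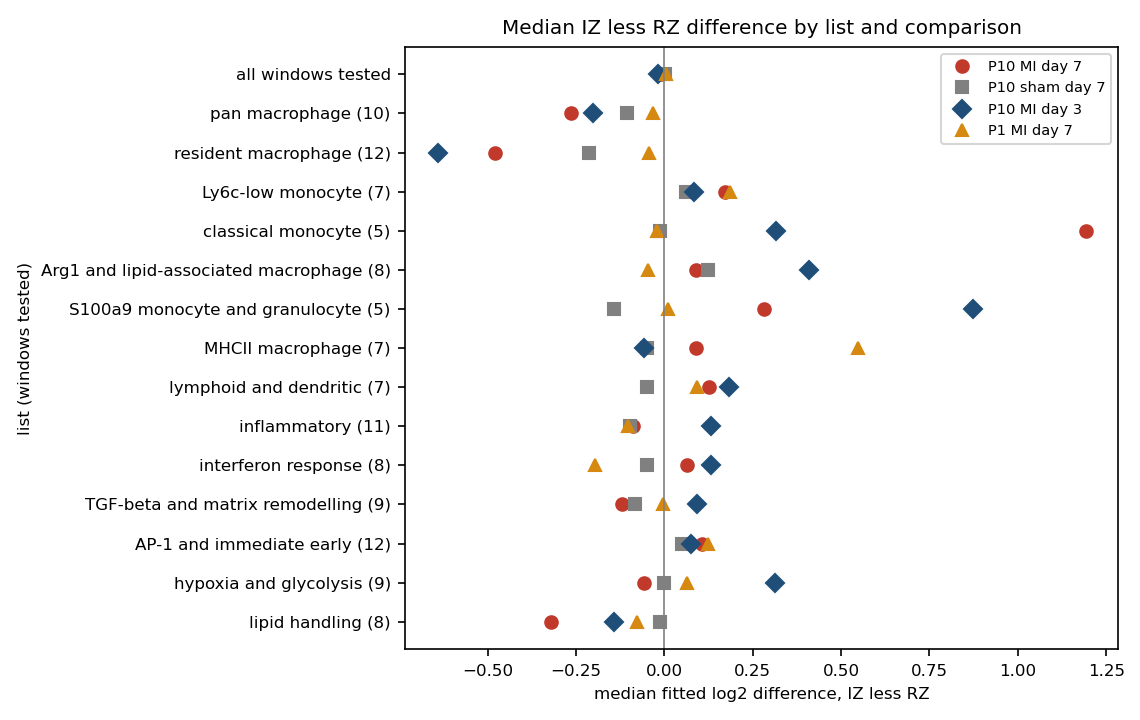
The x axis gives the median fitted log2 difference, IZ less RZ, of each list's tested windows (number in brackets) and the symbols stand for P10 infarction at day 7, P10 sham at day 7, P10 infarction at day 3 and P1 infarction at day 7, with lists of fewer than 5 tested windows left out. At day 7 after P10 infarction the resident macrophage list has the lowest median, -0.48, and the classical monocyte list, with 5 windows, the highest, 1.19.

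Lists of cell programmes had members in both directions. For lipid handling 6 of 8 were lower (median -0.32), among them Abca1, the cholesterol exporter, with 567 and 637 CPM in IZ and 853 and 862 CPM in RZ (-0.50 ± 0.20 (SE), limma adjusted p = 0.739). In the hypoxia and glycolysis list 4 of 9 were higher and 5 lower (median -0.06), with the glucose transporter gene Slc2a1 high in IZ and Hk2, hexokinase 2, low (378 and 439 CPM in IZ and 515 and 658 CPM in RZ, log2 -0.43 ± 0.22 (SE), limma adjusted p = 0.771). Vegfa had too few pairs. For TGF-beta and matrix remodelling 3 of 9 were higher (median -0.12): Smad3, a signal transducer of TGF-beta, held 715 and 680.5 CPM in IZ and 579 and 454 CPM in RZ (0.37 ± 0.20 (SE), limma adjusted p = 0.771), and the ligand gene Tgfb1 held 970.3 and 792 CPM in IZ and 1093 and 954 CPM in RZ (-0.26 ± 0.17 (SE)). Of the inflammatory list 4 of 11 were higher (median -0.09), and Cxcl2, a neutrophil chemokine, held 123 and 112 CPM in IZ and 139 and 184 CPM in RZ (-0.33 ± 0.40 (SE)). Tnfaip3, which restrains NF-kappaB signalling and is named here after its values were seen, held 362 and 577 CPM in IZ and 261 and 388 CPM in RZ (0.64 ± 0.25 (SE), limma adjusted p = 0.739), with overlap between zones. Of the AP-1 and immediate early list 7 of 12 were higher (median 0.11) and of the interferon response list 4 of 8 (median 0.07). The MHCII macrophage list, whose 7 windows lie in 4 separate stretches with neighbours that share pairs, had 5 of 7 higher (median 0.09), while Cd74, the invariant chain, held 386 and 215 CPM in IZ and 407 and 362 CPM in RZ (-0.42 ± 0.27 (SE)) and H2-Aa 57.6 and 146 CPM in IZ and 81.1 and 92.1 CPM in RZ (0.15 ± 0.50 (SE)). Lymphoid and dendritic windows, 5 of 7 higher with a median of 0.13, averaged 125 and 126 CPM per gene in IZ and 114 and 129 CPM in RZ, so the summed level of other leukocyte markers overlapped between zones. Of the 5 endothelial genes only Pecam1, which myeloid cells also express, was tested (-0.25 ± 0.19 (SE)).

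In each direction 8 windows were taken in order of p, leaving out those that overlap one already taken or differ in sign between the replicate pairs, and Slc2a1 was the list gene among them. Ccdc88c (chr 12, 100911523 to 101029056), which encodes Daple, a Dishevelled-binding protein of Wnt and G protein signalling, held 460.5 and 431 CPM in the IZ libraries (56 and 50 pairs) and 131 and 204 CPM in the RZ libraries (68 and 31 pairs). Both IZ libraries stood at over 2 times the higher RZ library, and the log2 difference was 1.59 ± 0.34 (SE) (limma adjusted p = 0.0545). Pygl (chr 12, 70190811 to 70231488), a glycogen phosphorylase, held 107 and 241 CPM in the IZ libraries (13 and 28 pairs) and 27.02 and 52.6 CPM in the RZ libraries (14 and 8 pairs), with IZ replicate 2 the highest (2.24 ± 0.48 (SE), limma adjusted p = 0.0545). Its neighbour Trim9 holds the same pairs. The adjusted p of both fell below 0.05 when only the 12 libraries of P10 hearts at day 7 were fitted (0.00796 for each) and with the narrower window (0.0378 for each), and over all alternatives it ran from 7.43e-07, in the blocked fit of the 4 libraries, to 1.00 for Ccdc88c and from 0.00409 to 1.00 for Pygl (0.00530 in the blocked fit).

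Slc2a1, the glucose transporter GLUT1, held 296 and 319 CPM in the IZ libraries (36 and 37 pairs) and 156 and 112 CPM in the RZ libraries (81 and 17 pairs) (1.11 ± 0.32 (SE), limma adjusted p = 0.586). Most of it came from the region 9632 bases from the start site, with 197 and 215 CPM in IZ and 102 and 59.2 CPM in RZ (1.22 ± 0.41 (SE), limma adjusted p = 0.579). Dock5, an activator of the GTPase Rac, held 222 and 129 CPM in IZ and 54.0 and 65.8 CPM in RZ (1.59 ± 0.43 (SE)), of which the larger share lay in 1 distal region (115 and 103 CPM in IZ and 27.02 and 13.2 CPM in RZ, log2 2.25 ± 0.62 (SE), limma adjusted p = 0.338), while its promoter region held 8.22 and 8.61 CPM in IZ and 9.65 and 13.2 CPM in RZ. Gla, the lysosomal alpha-galactosidase A on chromosome X, held 148 and 215 CPM in IZ and 75.3 and 52.6 CPM in RZ (1.38 ± 0.39 (SE)). The share of pairs on X overlapped between zones (2.41% and 2.66% in IZ, 2.16% and 2.79% in RZ; exact permutation p = 1). Prrt3 and 4930523C07Rik were also among these 8 windows, with log2 differences of 1.41 ± 0.39 (SE) and 2.14 ± 0.56 (SE) and an adjusted p of 0.586 each (limma). In the blocked fit of the 4 libraries Slc2a1, Dock5, Gla and Prrt3 passed (limma adjusted p = 0.00552, 0.00335, 0.0329 and 0.0418), and 4930523C07Rik did not.

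Among windows lower in IZ the smallest p belonged to Hist1h2br, a histone H2B gene, with 16.4 and 8.61 CPM in the IZ libraries (2 and 1 pairs) and 83.0 and 65.8 CPM in the RZ libraries (43 and 10 pairs) (-2.28 ± 0.57 (SE), limma adjusted p = 0.396). Rybp, a subunit of Polycomb repressive complexes, held 16.4 and 8.61 CPM in IZ and 56.0 and 85.5 CPM in RZ (-1.99 ± 0.54 (SE)), from 2 and 1 pairs in IZ. Wdfy3, an adaptor of selective autophagy, rested on more pairs: 312 and 258 CPM in the IZ libraries (38 and 30 pairs) and 517 and 645 CPM in the RZ libraries (268 and 98 pairs) (-0.94 ± 0.29 (SE), limma adjusted p = 0.586). The window of Atp5o, which overlaps Itsn1 and holds the same pairs, held 509.8 and 629 CPM in the IZ libraries (62 and 73 pairs) and 909 and 974 CPM in the RZ libraries (471 and 148 pairs) (-0.71 ± 0.21 (SE), limma adjusted p = 0.586). The promoter region of Atp5o held 5 and 4 of these IZ pairs. Its levels were 41.1 and 34.5 CPM in IZ and 38.6 and 46.1 CPM in RZ (-0.005 ± 0.66 (SE)). In the blocked fit of the 4 libraries Wdfy3 and Atp5o passed (limma adjusted p = 0.00530 and 0.00455), and no other of the 8 lower windows. Pon1, Pwp1 and Chrm1 had at most 3 pairs in an IZ library, at log2 differences of -1.75 ± 0.54 (SE), -1.92 ± 0.60 (SE) and -1.997 ± 0.60 (SE). Lactb2 had 8 pairs in IZ replicate 1 and 0 in IZ replicate 2, and its IZ level of 65.8 CPM in replicate 1 lay between the RZ libraries (88.8 and 46.1 CPM), so its log2 difference (-2.09 ± 0.62 (SE)) rests on IZ replicate 2.

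**Figure D3:**
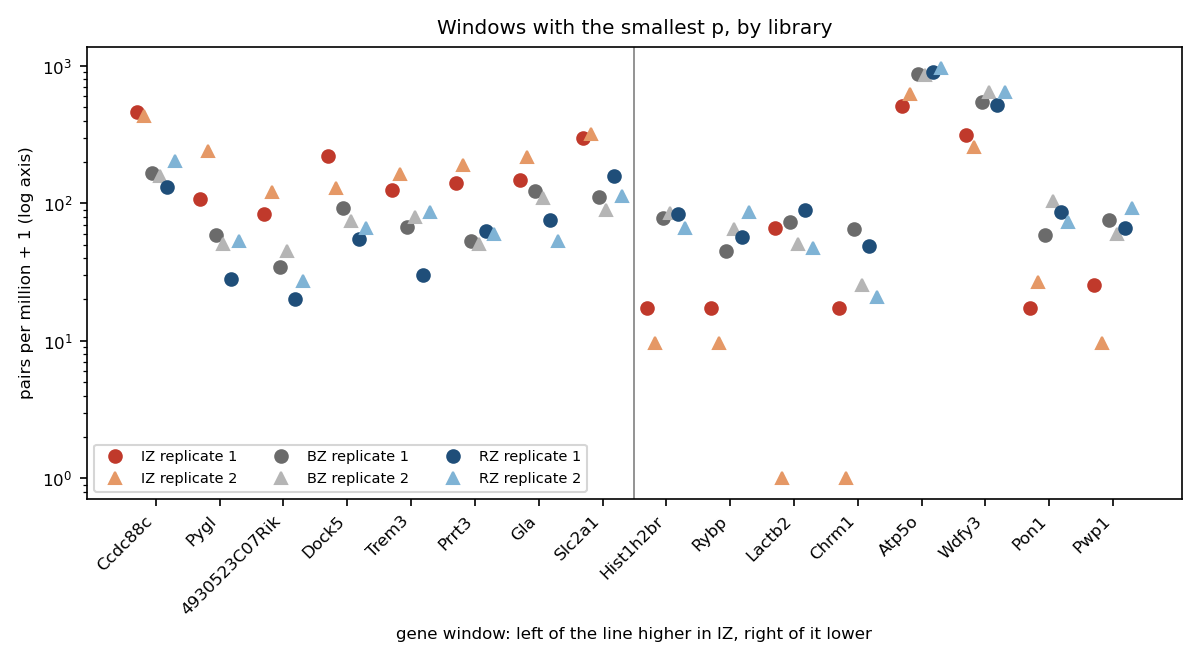
Each column is 1 of the 8 windows taken per direction in order of p without overlap, the y axis is CPM + 1 on a log scale, and symbols are single libraries of IZ, BZ and RZ. The Ccdc88c libraries of IZ sit at 460.5 and 431 CPM and those of BZ at 166 and 158 CPM, beside the RZ libraries, while the lower windows of IZ on the right rest on few pairs, apart from Atp5o and Wdfy3.

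The border zone, described without a test, is given beside the windows with the smallest p. Of the 378 windows higher in IZ at an unadjusted p below 0.05, the BZ mean lay between IZ and RZ in 268 (70.9%) and was nearer to RZ in 220, and of the 280 lower windows it lay between them in 232 (82.9%) and nearer to RZ in 156. IZ and RZ values chose these windows, so a BZ value between them had to be common. Over all windows the share was 40.0%, with 2403 of those 4083 windows nearer to RZ. BZ libraries held 58.1 and 49.4 CPM for Pygl, 122 and 128 CPM for Plac8 and 111 and 88.8 CPM for Slc2a1, where both lay below both RZ libraries. For the resident gene Mrc1 they held 656 and 824 CPM, with replicate 1 between the zones and replicate 2 inside the RZ range, and for Adgre1 387 and 518 CPM, with replicate 1 between the zones.

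**Figure D4:**
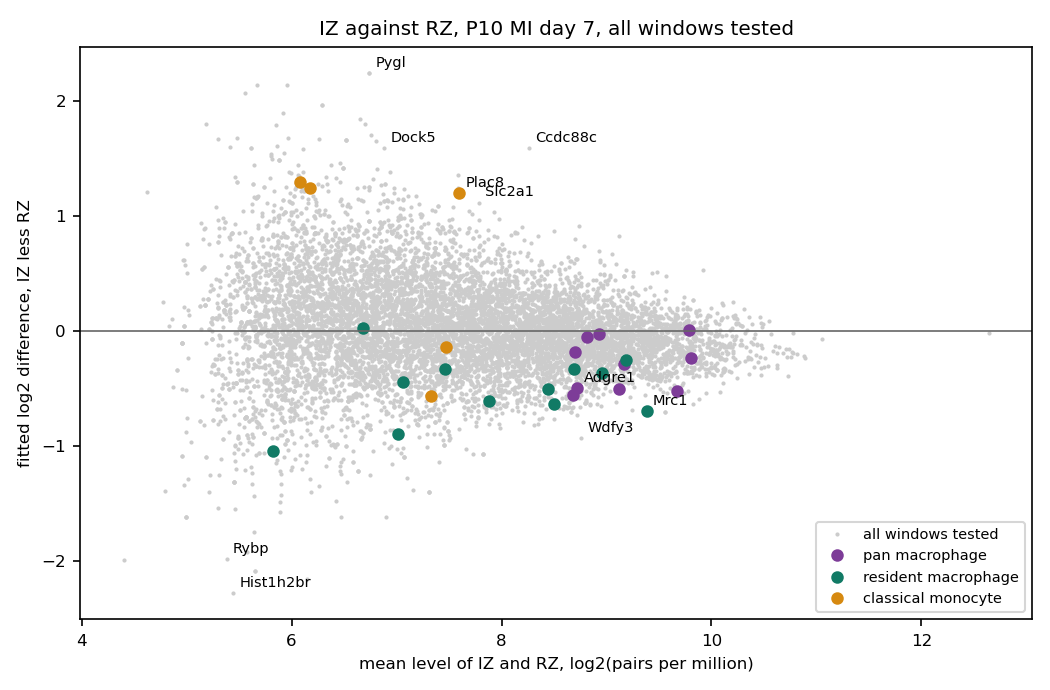
Each grey point is 1 of 10208 windows, with the mean level of IZ and RZ in log2 CPM on the x axis and the fitted log2 difference, IZ less RZ, on the y axis, and the coloured points are the tested genes of 3 lists. The resident macrophage points (green) lie below 0 at every level with 1 exception, 3 classical monocyte points (orange), Plac8 and Hp included, lie above it, and the spread of the grey points widens toward low levels.

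Single H3K27ac regions gave a finer view. Of 23079 regions 11951 were tested, 0 passed the adjusted threshold (0%, limma, smallest adjusted p = 0.0521, limma-trend also 0), 756 had an unadjusted p below 0.05 (6.33%), 439 higher in IZ (3.67%) and 317 lower (2.65%), against 385 in either direction in sham hearts (3.22%). Both IZ libraries lay above both RZ libraries in 16.6% of regions and below in 18.8%, together 35.4%, again near the 0.333 of randomly arranged labels. In the fit of the 4 libraries alone with the replicate number as a block 15 regions passed, 11 higher and 4 lower, among them the Ccdc88c region below (limma adjusted p = 0.00000631) and the Slc2a1 and Dock5 regions above (0.0447 and 0.00841). Distal regions, more than 1 kb from a start site, passed the unadjusted threshold in 4.75% (higher) and 3.27% (lower) of 4531, and promoter regions in 3.02% and 2.28% of 7420. Promoter regions took 68.3% and 66.7% of the pairs in regions in IZ and 69.0% and 66.8% in RZ (exact permutation p = 0.667, where the design allows no less than 0.333). Regions nearest to resident macrophage genes were lower in 23 of 32, with a median of -0.62, and those of pan macrophage genes in 15 of 17, with a median of -0.43, against a median of 0.03 over all regions. Many of the resident regions had Maf as the nearest gene, at up to 396596 bases from its start site and in both directions. They were thus not spread evenly over the genes of the list. Regions of classical monocyte genes were higher in 6 of 12, with a median of -0.18, below 0 where the median over their windows was 1.19.

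The region with the smallest p lay inside Ccdc88c, touching no exon (chr12:101005501-101022000, mm10, 16500 bases, 6909 bases from the start site). It held 255 and 249.8 CPM in the IZ libraries (31 and 29 pairs) and 52.1 and 85.5 CPM in the RZ libraries (27 and 13 pairs), a log2 difference of 2.07 ± 0.43 (SE) (limma adjusted p = 0.0521). A further region of the gene, chr12:100983001-100997500, held 107 and 112 CPM in IZ and 23.2 and 46.1 CPM in RZ (1.94 ± 0.57 (SE), limma adjusted p = 0.433). The promoter region held 24.7 and 43.1 CPM in IZ and 23.2 and 19.7 CPM in RZ (0.63 ± 0.75 (SE)). In the other hearts the first region differed by a log2 of 0.06 in sham hearts, 1.32 at day 3 and -0.16 in P1 hearts, and the difference between infarcted and sham hearts was 2.01 ± 0.62 (SE) (limma adjusted p = 0.924).

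The next regions higher in IZ rested on 10 to 16 IZ pairs. An intergenic region 184361 bases from the start of Id2, an inhibitor of DNA-binding factors, held 5 and 5 pairs in IZ and 1 and 0 in RZ, and the ratio of the pairs of both IZ libraries over their summed totals to that of both RZ libraries was 28.2 with an exact 95% counting interval from 4.01 to 1223. An intergenic region nearest to Txn2, mitochondrial thioredoxin, held 6 and 6 pairs against 3 and 0 (ratio 11.3, 3.04 to 62.3), and the Pygl region chr12:70218501-70223500 held 4 and 9 pairs against 1 and 2 (ratio 12.2, 3.36 to 66.8). A region in Myo1e, an unconventional myosin, held 5 and 11 pairs against 5 and 0, and the promoter region of Mmaa, a gene of vitamin B12 metabolism, 6 and 6 against 4 and 0. These intervals, and those of the lower regions below, cover counting error only. The regions were chosen for a small p on the same counts, so intervals that leave out a ratio of 1 had to be common.

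The 6 regions lower in IZ with the smallest p held 0 pairs in both IZ libraries, so a fold is given against a floor of 3 pairs over both IZ libraries, which takes the RZ count as exact, and the exact 95% counting interval of the ratio, which does not, is given beside it. The region chr17:88580001-88582500, inside Ppp1r21, held 48.3 and 39.5 CPM in RZ (25 and 6 pairs) and was at least 3.67-fold lower in IZ against the floor, with a ratio of IZ to RZ of up to 0.356 by the interval (adjusted p = 0.21, limma). A region in Ehd4, an endocytic ATPase, was at least 3.43-fold lower (ratio up to 0.382; its window passed in the blocked fit of the 4 libraries, limma adjusted p = 0.0408), and an intergenic region nearest to Tut7, a terminal uridylyltransferase, at least 2.96-fold (ratio up to 0.448). The regions of Fam129a, Btnl2 and Bag5 were at least 2.48 to 2.72-fold lower against the floor, with ratios of up to 0.490 to 0.541.

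The central 300 bases of 5 of these regions, those near Id2 and Txn2 among the higher and those of Ppp1r21, Ehd4 and Tut7 among the lower, read from GRCm38 (the assembly behind mm10) on the plus strand, are shown because these regions are among those with the smallest p in each direction. Capitals mark matches, on either strand, to GAGGAAGT (PU.1), TGANTCA (AP-1), TTGCNNAA (C/EBP), GAAA and GAAA spaced by any 2 bases (the interferon response element ISRE) or CACGTG (an E-box), where N is any base.
Id2 region (chr12:25283101-25283400): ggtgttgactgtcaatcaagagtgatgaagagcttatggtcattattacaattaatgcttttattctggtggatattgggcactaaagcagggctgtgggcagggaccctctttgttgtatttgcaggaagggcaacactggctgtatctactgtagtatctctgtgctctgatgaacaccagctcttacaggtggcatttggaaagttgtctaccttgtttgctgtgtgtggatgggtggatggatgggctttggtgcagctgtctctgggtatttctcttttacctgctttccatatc
Txn2 region (chr15:77893101-77893400): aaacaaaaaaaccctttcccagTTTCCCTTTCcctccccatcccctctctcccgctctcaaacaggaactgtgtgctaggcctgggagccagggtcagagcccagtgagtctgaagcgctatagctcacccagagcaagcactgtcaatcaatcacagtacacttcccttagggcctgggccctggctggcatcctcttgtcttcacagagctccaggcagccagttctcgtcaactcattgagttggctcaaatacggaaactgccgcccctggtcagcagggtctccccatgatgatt
Ppp1r21 region (chr17:88581101-88581400): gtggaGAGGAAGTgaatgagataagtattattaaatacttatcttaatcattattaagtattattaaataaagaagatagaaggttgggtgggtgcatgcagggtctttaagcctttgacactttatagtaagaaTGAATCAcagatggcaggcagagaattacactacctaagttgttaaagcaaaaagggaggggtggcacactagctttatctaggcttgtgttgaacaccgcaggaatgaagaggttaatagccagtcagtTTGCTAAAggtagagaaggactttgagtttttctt
Ehd4 region (chr2:120112601-120112900): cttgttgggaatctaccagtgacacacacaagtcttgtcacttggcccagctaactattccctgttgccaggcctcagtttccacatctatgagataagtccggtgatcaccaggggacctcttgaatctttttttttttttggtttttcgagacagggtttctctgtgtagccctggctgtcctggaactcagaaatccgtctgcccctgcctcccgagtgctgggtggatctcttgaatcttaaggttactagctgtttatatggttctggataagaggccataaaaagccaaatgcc
Tut7 region (chr13:59840851-59841150): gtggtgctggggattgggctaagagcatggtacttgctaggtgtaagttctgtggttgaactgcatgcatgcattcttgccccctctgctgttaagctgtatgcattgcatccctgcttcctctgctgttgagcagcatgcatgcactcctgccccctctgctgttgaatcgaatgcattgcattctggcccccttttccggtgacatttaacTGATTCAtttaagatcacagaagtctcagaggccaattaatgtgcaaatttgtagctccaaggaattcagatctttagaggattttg
Of the stretches higher in IZ shown here that near Txn2 holds a match, to the ISRE at position 23 of the stretch, and that near Id2 none. Of the 3 lower ones that in Ppp1r21 holds matches to PU.1, AP-1 and C/EBP at positions 6, 136 and 266, and that near Tut7 a match to AP-1 at position 214. A match is a string of letters and no evidence of binding. Over all 11951 regions the central 300 bases held PU.1 in 2.80%, AP-1 in 7.82%, C/EBP in 10.5%, ISRE in 4.03% and the E-box in 5.40%. The 439 regions higher in IZ held them in 2.96%, 8.20%, 9.34%, 4.56% and 4.33%, and the 317 lower ones in 4.10%, 7.57%, 6.94%, 4.10% and 5.68%.

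**Figure D5:**
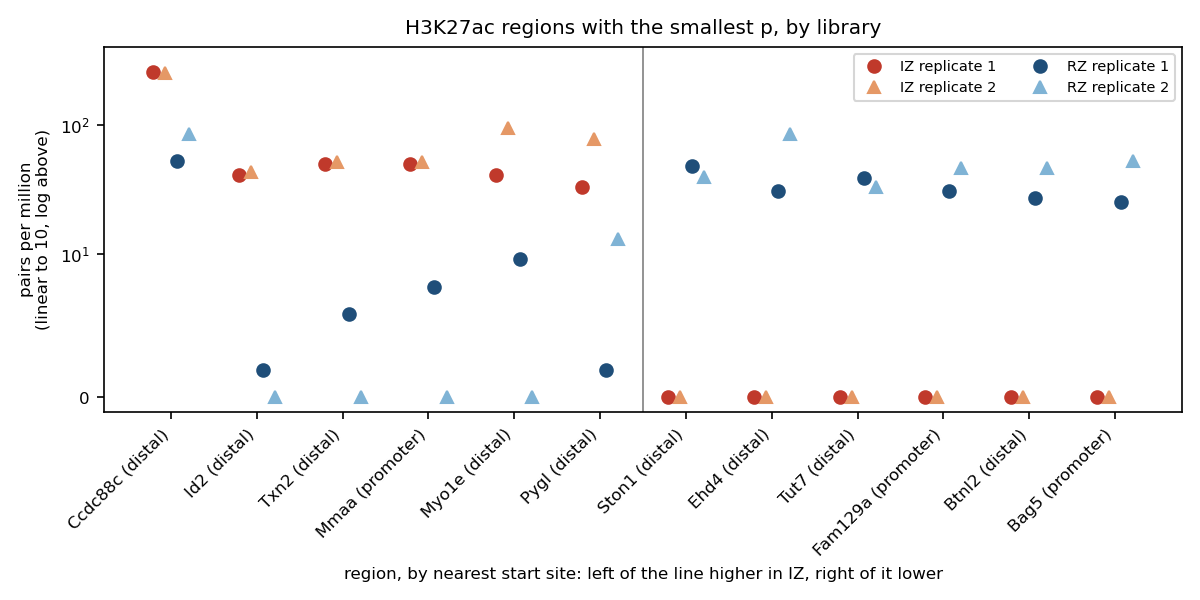
Each column is 1 of the 6 regions per direction with the smallest p, named by the nearest start site, the y axis is CPM (linear up to 10 and logarithmic above), and symbols are single libraries. The Ccdc88c region stands at 255 and 249.8 CPM in IZ, whereas the other columns rest on 0 to 25 pairs per library.

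Whether the zone difference was particular to infarcted P10 hearts at day 7 was asked by tests of a difference between differences. Against sham hearts 0 windows and 0 regions had an adjusted p below 0.05 (0% of each; 305 windows, 2.99%, and 505 regions, 4.23%, at an unadjusted p below 0.05, limma, and limma-trend also 0 of each). The positive differences with the smallest p were at Gdf9, an oocyte growth factor (2.49 ± 0.72 (SE), limma adjusted p = 0.999), at Atrnl1 (2.62 ± 0.77 (SE)) and at Zfp146 (1.68 ± 0.53 (SE)), whose window held 279.6 and 276 CPM in IZ and 152 and 59.2 CPM in RZ (IZ against RZ in the blocked fit of the 4 libraries, limma adjusted p = 0.00529). The negative ones were at Hist1h2br (-2.64 ± 0.75 (SE)), Ap3b1 (-2.62 ± 0.76 (SE)) and Pon1 (-2.47 ± 0.74 (SE)). For Ccdc88c the value was 1.44 ± 0.48 (SE) (limma adjusted p = 0.999), and for Plac8 0.94 ± 0.54 (SE), Mrc1 -0.20 ± 0.36 (SE) and Lyve1 -0.60 ± 0.40 (SE). In sham hearts Mrc1 itself differed between the zones by -0.50 and Abca1 by -0.42, against -0.70 and -0.50 after infarction.

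Against day 3 after P10 infarction 0 windows passed the adjusted threshold (0%; 410, or 4.02%, at an unadjusted p below 0.05, limma, and limma-trend also 0). Prrt3 (1.41 at day 7 and -0.87 at day 3), Zscan25 (0.89 and -2.10) and Wdr35 (0.97 and -0.62) led the windows with a more positive difference at day 7, and Rybp (-1.99 and 1.47), Pom121l2 (-0.88 and 2.58) and Bcl3, an NF-kappaB cofactor (-0.39 and 0.82), those with a more negative one. Ccdc88c was higher in IZ at both times, by 1.59 and 1.28 (difference 0.31 ± 0.47 (SE)), as were Slc2a1 (1.11 and 0.92) and Lgals3 (0.78 and 0.59). Mrc1 was lower at both (-0.70 and -0.73), and so were Gas6 (-1.05 and -1.21) and Cbr2 (-0.64 and -1.33).

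Against P1 hearts at day 7, infarcted at an age at which the mouse heart can still regenerate, 0 windows passed the adjusted threshold (0%; 599, or 5.87%, at an unadjusted p below 0.05, limma, and limma-trend also 0). Without RZ replicate 1 of the P1 hearts the count was 143 and without their IZ replicate 1 it was 48. Ccdc88c differed by 1.59 in P10 and 0.02 in P1 hearts (difference 1.57 ± 0.45 (SE), limma adjusted p = 0.556), and Pygl by 2.24 and 0.04 (difference 2.199 ± 0.62 (SE), limma adjusted p = 0.556). Mrc1 differed by -0.70 and -0.04 and Plac8 by 1.19 and -0.14. Replicate 2 of the P1 hearts was thin, with 87462 pairs in IZ and 72874 in RZ. There 1 pair was worth 21.7 CPM in IZ and 26.1 CPM in RZ, which limits the P1 values. The windows with the smallest p were Daam2 (0.80 and -2.35), Trp53bp1 (0.61 and -2.03) and Map4 (0.64 and -2.01) on the positive side, and Pwp1 (-1.92 and 1.67), Helb (-1.25 and 2.01) and Ddx3x (-0.92 and 1.86) on the negative side. In replicate 2 of the P1 hearts the IZ library held 0 pairs for Daam2, Trp53bp1 and Map4 and the RZ library 0 for Pwp1, Helb and Ddx3x. In replicate 1 of the P1 hearts alone IZ less RZ was -1.88 for Daam2, -1.03 for Trp53bp1, -0.45 for Map4, -0.015 for Pwp1, 0.62 for Helb and 0.69 for Ddx3x, as differences of log2(CPM + 1).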

How the data were processed

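H3K27ac CoBATCH libraries of sorted CD45+F4/80+ cells were analysed from lists of aligned reads, whose score column the authors filled with the mapping quality of each read (21 to 44 in the deposited files). Per the study's methods the authors trimmed reads, aligned them to mm10 with Bowtie2, removed duplicates with Picard, and kept cells above a minimum read number. Signal tracks and peak calls were not used here. From 17959096 unique read pairs of 42 libraries, regions were defined as 500 bp bins at over 4 times the mean (bins within 1000 bp joined), with equal weight per group, which gave 23079 regions. A read without its mate was counted as a pair, also in the total of 17959096. Pairs were counted per region and, inside regions, per window of 21938 protein-coding genes (GRCm38). A mean of 10 pairs per library was required for a window and 3 for a region.

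Tests used limma 3.58.1 (voom, two-sided) in R 4.3.3 on all 42 libraries, with a mean per group, TMM-scaled totals (factors 0.974 to 1.05), the pool of hearts as a random block (correlation 0.1215 for windows and 0.05547 for regions) and Benjamini-Hochberg adjustment at 0.05. Replicate numbers were taken as pools of hearts: the differences between number 1 and number 2 correlated weakly between zones over 10208 windows (0.10 for IZ and RZ, 0.093 for IZ and BZ, 0.18 for BZ and RZ), and IZ and RZ of the same number shared their flow cells in P10 hearts at day 7 after infarction, but only in part in replicate 1 of the P1 hearts. Nothing states that a pool is the same animals for every zone. In the fit of all libraries p-values measure the spread between libraries of a group, estimated over all groups together. The scripts were tested on simulated data. Named windows were the fixed markers, up to 4 members of each list without overlap between zones, and, higher and lower in IZ alike, the 8 windows and 6 regions of smallest p with the same sign in both replicate pairs, without windows that overlap one already taken (3 windows for each difference between comparisons). Members, gene lists and rules were chosen with earlier results of these data known. Alternatives changed the block, scaling, filter, weights, window, region threshold and libraries. The values of 1 classical monocyte gene and the sequence of 1 region are not reported here.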

Additional observations from a re-analysis of the deposited data

How the results depend on the processing

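Counts of calls at an adjusted p below 0.05 (limma) changed with the libraries fitted, the window, the scaling and the filter. For windows in IZ against RZ the count was 0, and it was 62 with the replicate block in a fit of the 4 libraries alone, 3 in the 12 libraries of P10 day 7 (Pygl, Trim9 and Ccdc88c), 2 with a window from 5 kb before the gene to its end, and 0 to 10 when 1 library was left out. It was 10 without IZ replicate 1 and 2 without RZ replicate 1. It was 0 without the replicate block and with the block as a fixed term. For regions the count was 0, and it was 15 with the replicate block in the 4 libraries, 1 with median-of-ratios size factors, 1 with the stricter filter, 1 in the 12 libraries, and 0 to 3 without 1 library (3 without RZ replicate 1). Infarcted less sham gave 0 to 1 windows and 0 to 1 regions without 1 library. Day 7 less day 3 gave 1 window with all pairs in the window and 0 to 1 without 1 library. P10 less P1 gave 0 to 143 windows without 1 library. A left-out library leaves its group with 1 library, whose spread is assumed to be like that of the other groups. The cause of these changes was not tested.

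The counts over lists under other settings were chosen after seeing the data. Resident macrophage windows lower in IZ numbered 7 of 7 with the stricter filter and 6 of 7 with the narrow window, where fewer genes were tested, and 9 to 12 of 12 without 1 library. Classical monocyte windows higher in IZ numbered 1 of 1 with the stricter filter, 5 of 8 with all pairs, and 3 to 4 of 5 without 1 library. Signs turned, with no call in either direction, with all pairs in the window for Zscan25 (-0.22), Daam2 (-0.27), Wfdc21 (-0.066), Cd247 (-0.13) and Eno1 (0.0038), and with the narrow window for Adgre1 (0.32), Tgfb1 (0.27) and Eno1 (0.057). Without 1 library the log2 difference ranged from -0.66 to 1.23 for Arg1, from -0.25 to 1.11 for Trem2, from -0.42 to 0.040 for Igf1 and from -0.45 to 0.81 for H2-Aa. With 1 pair worth up to 8.61 CPM, small differences cannot be resolved in windows of few pairs in IZ.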
